A study of Canis lupus familiaris with 17 samples.

Results

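The CD34-positive progenitors of canine blood were described across the libraries of 7 healthy dogs and 10 dogs with osteosarcoma (OS), a bone tumour. A droplet barcode, taken as 1 cell, was chosen by raw counts of unique molecular identifiers (UMIs, 1 per captured transcript). It had at least 1 UMI of CD34 and at least 1 of CD109, KIT, ZNF521, TFPI or NDST3, and none of the T cell gene CD3E or of the B cell genes MS4A1 and PAX5. It also held 200 to 8000 genes and 500 to 60000 UMIs, with under 10% of UMIs from mitochondrial genes. The rule was met by 78 of the 87325 barcodes within these limits, and by at least 1 barcode in each of the 17 dogs. Of the 78, 42 came from healthy dogs and 36 from dogs with OS.

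All libraries were made from blood leukocytes separated on Ficoll and then freed of red cells by lysis, labelled PBMC (peripheral blood mononuclear cells), primary and genotype Wt. Every dog was client-owned, and they were of several breeds, so the animals were outbred. The healthy dogs had no known disease and were middle-aged. Dogs with OS had a primary tumour and no treatment before the blood was drawn, and some of them were older than any healthy dog, so age and disease cannot be told apart in full. Each dog gave 1 library and was 1 replicate.

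CD34 is a surface sialomucin of blood-forming stem and progenitor cells and of endothelial cells. Such progenitors sit mostly in the bone marrow, held there by KIT signalling and by adhesion and chemokine receptors, and a small number circulates in healthy blood. KIT is the receptor of stem cell factor, ZNF521 a zinc finger protein of immature haematopoietic cells, CD109 a membrane protein that binds TGF-beta, TFPI the inhibitor of tissue factor, and NDST3 an enzyme of heparan sulphate synthesis. As progenitors commit, they switch on the factors of 1 lineage, such as GATA1 in erythroid, megakaryocytic and mast cells, and lose others.

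The libraries held 93013 barcodes and between 7740230 and 56510134 UMIs each. After the limits, 1253 to 7218 barcodes per dog remained, fewest in OS dog 3. The median barcode outside the chosen set held 3819 to 6918 UMIs by dog. Of 86329 distinct barcode sequences, 990 occurred in more than 1 library, and none of these was among the 78.

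The selection can be followed step by step. CD34 had a UMI in 212 barcodes, of which 123 were set aside for a UMI of CD3E, MS4A1 or PAX5 and 11 more for lacking all 5 second genes. The 11 barcodes with CD34 alone were shallow, with a median of 3672 UMIs. Inside the rule, 69 barcodes had at least 2 CD34 UMIs (median of all 78, 5; highest, 20) and 9 had just 1. Of the 5 second genes, 75 barcodes had at least 3, 65 had at least 4 and 37 had all 5. The study had listed these genes, from the same samples, for a cluster that it called CD34+ unclassified. It gave that cluster no further identity, citing its small size and conflicting signatures. Progenitor is used here as a name for the barcodes that met the rule. The barcode nearest the edge of the rule was the only one of OS dog 3, which held 14085 UMIs and KIT as its only second gene. Just outside the rule on CD34, 18 barcodes had no CD34 UMI but at least 3 of the 5 genes, with a median of 25899 UMIs.

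CD34 was rare in the other leukocytes. Barcodes with CD3E, taken as T cells, had a CD34 UMI in 23 of 46402 cases, or 0.0496%. Those with MS4A1 and PAX5, taken as B cells, had one in 38 of 3285 cases, or 1.16% (exact 95% interval 0.820 to 1.58%). None of 4155 barcodes with S100A12 and CD86, taken as monocytes, had one, but the chosen barcodes had been left out of that set beforehand. Among those left out, a barcode of OS dog 5 held 1 S100A12 and 2 CD86 UMIs, and a barcode of OS dog 6 held 14 and 1. The value for monocytes is therefore set in part by the rule. The median depth of these sets was 5578 UMIs in T cells, 4609 in B cells and 10548 in monocytes. When every barcode was thinned to 2500 UMIs, with shallower ones left out, a CD34 UMI remained in 44.9% of the chosen barcodes, 0.816% of B cells and 0.0132% of T cells. The rule had asked for a CD34 UMI at full depth, so the value for the chosen barcodes is set by it and the contrast is a description. Exact 95% intervals of a share of barcodes are Clopper-Pearson intervals and cover counting error only.

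The chosen barcodes held many UMIs. The rule asks for detected UMIs of CD34 and of a second gene, so it favours deep barcodes by itself. How much of the depth below comes from the rule and how much from the cells was not tested. Their median was 20099 UMIs (lowest 4599, highest 44084) and 4432.5 genes, against 5490 UMIs and 2040 genes in all other barcodes. In each of the 17 dogs the median of the CD34+ progenitors was the higher one, with group means of 20850 ± 4883 UMIs in healthy dogs (SD, n = 7) and 21708 ± 5324 in dogs with OS (SD, n = 10). The share of mitochondrial UMIs was 3.34% in the progenitors and 2.91% in the rest. Of the 78 barcodes, 39 exceeded 20000 UMIs, and 40 fell outside the narrower limits used in the study, which stop at 4500 genes and 20000 UMIs. Scrublet scores each barcode by its likeness to simulated pairs of cells. The barcodes with the highest scores in each dog were taken as likely doublets, at an assumed 0.8% for every 1000 barcodes of the library. Their number was thus set beforehand, at 4072 of the 87325 barcodes within the limits, and 6 of the 78 (7.69%) were among them.

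**Figure D1:**
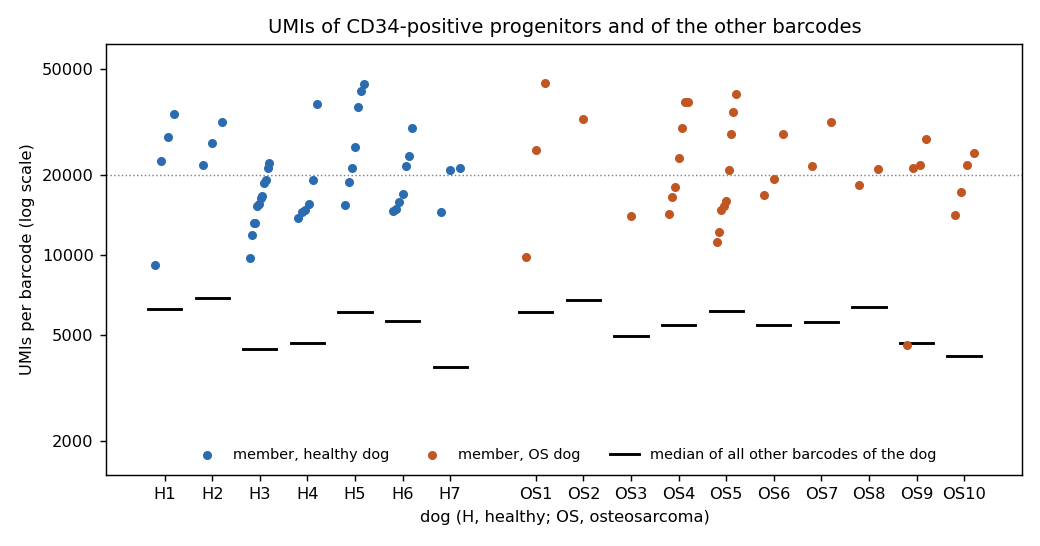
UMIs per CD34+ progenitor barcode (points, log axis) in each of the 7 healthy dogs (H) and 10 dogs with osteosarcoma (OS), with the median of all other barcodes of the dog as a black bar and 20000 UMIs as a dotted line. The median of the progenitors lies above the bar in all 17 dogs, and 39 of the 78 points lie above 20000 UMIs. The rule that chose the progenitors asks for detected UMIs and so favours deep barcodes.

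The abundance of the progenitors was compared between the groups as a percentage of the kept barcodes of each dog. Both groups showed low shares that overlapped over most of their range. In the healthy dogs 1 to 7 the shares were 0.0646, 0.0843, 0.215, 0.0831, 0.155, 0.139 and 0.0610%, from 4, 3, 12, 6, 7, 7 and 3 barcodes. In dogs with OS the lowest share was 0.0157%, the median 0.0621% and the highest 0.164%, from 3, 1, 1, 7, 9, 3, 2, 2, 4 and 4 barcodes in OS dogs 1 to 10. The highest value belonged to healthy dog 3 and the lowest to OS dog 2, while OS dogs 4 and 5 stood as high as healthy dog 5. The counts behind a dog were small, so that the exact 95% interval ran from 0.111 to 0.376% in healthy dog 3 and from 0.000398 to 0.0876% in OS dog 2.

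The mean share was 0.115% ± 0.0572 in healthy dogs (SD, n = 7) and 0.0750% ± 0.0495 in dogs with OS (SD, n = 10). The difference of -0.0395 percentage points did not pass the exact Wilcoxon rank sum test (two-sided p = 0.109). The Hodges-Lehmann shift was -0.0320, with a 95% interval of -0.0991 to 0.00870 from the same test over dogs. The result turned on small changes of the rule: with at least 2 CD34 UMIs the difference was -0.0520 (exact p = 0.0330), and without OS dog 4 or OS dog 5 it was -0.0494 and -0.0488 (exact p = 0.0418 each). Within the narrower limits of the study, which left 38 barcodes, it was -0.0189 (exact p = 0.668).

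**Figure D2:**
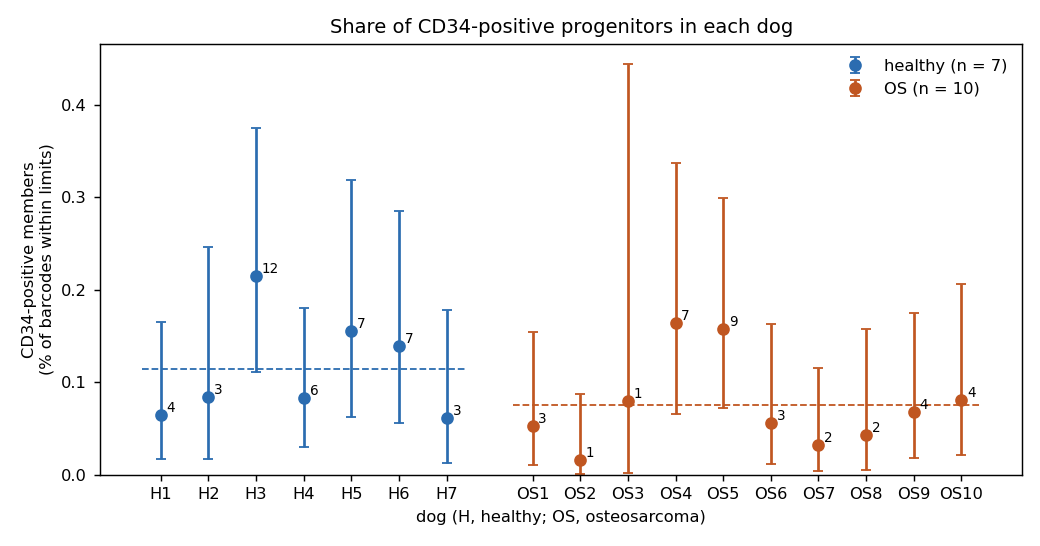
CD34+ progenitors as a percentage of the kept barcodes of each dog (points) with exact 95% binomial intervals (vertical lines), the number of progenitor barcodes beside each point and the mean of each group as a dashed line. The means are 0.115% in 7 healthy dogs and 0.0750% in 10 dogs with osteosarcoma (OS), and the points of the groups overlap.

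The same comparison was made for 8 companion gates, the main one included, which asked for 1 named second gene at a time, for at least 2, or for none. All 8 were lower in dogs with OS, and they share most of their barcodes. With TFPI asked for, the mean share was 0.102% in healthy dogs and 0.0552% in dogs with OS (exact Wilcoxon p = 0.0185, adjusted over the 8 gates 0.0647). With NDST3 it was 0.103 against 0.0466% (exact p = 0.0243, adjusted 0.0647), and with CD109 0.0922 against 0.0434% (exact p = 0.0243, adjusted 0.0647). With ZNF521 it was 0.107 against 0.0654% (exact p = 0.0431, adjusted 0.0862), while KIT, present in 74 of the 78 barcodes, gave an exact p of 0.109. None of the 8 passed after adjustment, 4 had an unadjusted exact p under 0.05, and leaving out OS dog 4 or OS dog 5 let 5 pass.

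The share of progenitors was also set against the depth of each library, taken as the median UMIs of the other barcodes. Over the 17 dogs Pearson's r was -0.177 (permutation p = 0.496, adjusted over the 4 sets of dogs compared 0.770) and Spearman's rho -0.216 (permutation p = 0.406, adjusted 0.541). Without healthy dog 7 and OS dog 10, the farthest from the median depth, r was -0.348 (permutation p = 0.202). Within the groups r was -0.114 in healthy dogs (permutation p = 0.807) and -0.201 in dogs with OS (permutation p = 0.578). Spearman's rho was 0.0714 in healthy dogs (permutation p = 0.906) and -0.515 in dogs with OS (permutation p = 0.134).

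Levels of genes are given below as counts per 1000000 UMIs (CPM), summed over the 78 barcodes or over all 87247 others, and dog by dog in the 6 dogs with at least 5 progenitors, which were healthy dogs 3, 4, 5 and 6 and OS dogs 4 and 5 with 48 barcodes in all. Since the barcodes were selected on 6 of these genes and on the absence of CD3E, MS4A1 and PAX5, which also bears on other T and B cell genes, and since all genes come from the same cells, such levels are a description and no test was made. As a background, 1292 of the 12822 genes with a UMI in the progenitors, 10.1%, were higher in them than in the other barcodes in all 6 dogs. Of the 18184 genes with a UMI in the other barcodes, 4384, 24.1%, were lower in the progenitors in all 6 dogs.

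Among the genes that chose the barcodes, CD34 stood at 383, 270, 178, 313, 237 and 238 CPM in healthy dogs 3 to 6 and OS dogs 4 and 5. KIT stood at 367, 331, 678, 313, 373 and 290 CPM and ZNF521 at 223, 374, 327, 255, 271 and 367 CPM in the same order. Both were therefore within a narrow range except for KIT in healthy dog 5. TFPI was the most uneven, with 69.3 CPM in healthy dog 5 and 426 CPM in healthy dog 4. KIT and ZNF521 also occurred in the 52 barcodes taken as basophils or mast cells, at pooled levels of 286 and 316 CPM against 431 and 370 CPM in the progenitors. After thinning to 2500 UMIs, KIT remained in 9.76% and ZNF521 in 29.3% of those basophil barcodes, against 56.4 and 50% of the progenitors. CD34 was absent from the 52 by definition, since barcodes with a CD34 UMI were kept out of that set.

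Of the 25 measured genes of stem and early progenitor cells, 9 were higher than in other leukocytes in all 6 dogs and 2, BAALC and NPR3, were lower. MEIS1, a homeobox cofactor that maintains stem cells, stood at 957, 775, 634, 1157, 560 and 1288 CPM against 19.1 CPM in the other barcodes, and 76 of the 78 progenitors had it. FLT3, the receptor of an early lymphoid and dendritic growth factor, stood at 450, 879, 208, 400, 396 and 771 CPM against 32.9. Every one of these dogs lay well above the rest of the leukocytes for both genes, with healthy dog 5 lowest for FLT3. HOXA9, a homeobox partner of MEIS1, reached 38.0 CPM against 0.0509, and the transcription factor MYB 458 against 11.2.

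The other members of this group that were higher in all 6 dogs were RUNX1 (1819 against 752 CPM), TAL1 (53.5 against 9.07), BCL11A (828 against 106), SOX4 (134 against 5.83) and the RNA-binding protein gene IGF2BP2 (230 against 5.24). BCL11A was nearly as high in B cells (659 CPM) and in barcodes taken as plasmacytoid dendritic cells (707 CPM). Markers of the most immature stem cells were found in some of the barcodes or in none. MECOM had 51.7 CPM but a UMI in just 14 barcodes. PRDM16 was found in 36, at a pooled 42.2 CPM, near the 38.0 CPM of HOXA9. ERG was found in 24 and GATA2 in 16. HLF was found in 4 barcodes, and CRHBP, BAALC and NPR3 in none of the 78. HOPX (250 against 235 CPM) and MLLT3 (291 against 206 CPM) were close to the level of other leukocytes.

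Of the lymphoid progenitor genes, DNTT, the terminal deoxynucleotidyl transferase that adds bases to rearranging antigen receptor genes, was the one set apart from mature cells. It stood at 373, 252, 213, 364, 187 and 636 CPM in the 6 dogs, and had a UMI in 73 of the 78 progenitors against 1.42% of the other barcodes. DNTT belongs to a short list that the study chose on these samples, so its direction is not independent. RAG1 and RAG2, the recombinase with which DNTT works, had no UMI in any progenitor, as had VPREB3 and CD79B. IL7R, the interleukin-7 receptor, was lower in all 6 dogs (28.5 against 431 CPM), and EBF1, an early B cell factor, was found in 5 barcodes. CD79A was counted in all 78 progenitors (6796 CPM) but also in 45865 of the 46402 T cell barcodes (8049 CPM), so it did not mark B lineage cells in these files. In all, 2 of 13 measured list members were higher in all 6 dogs and 6 were lower.

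Most of the 7 measured myeloid progenitor genes were scarce, while AZU1, PRTN3, CTSG, CEBPA and MS4A3 of the list had no entry under those symbols. MPO, the granule enzyme of early granulocytes, was found in 9 progenitors with 5.35 CPM in total, and ELANE, the neutrophil elastase, in none. SPI1, a myeloid and B cell transcription factor found in 54 progenitors, was lower than in other leukocytes in all 6 dogs (70.1 against 158 CPM), as was the macrophage receptor CSF1R (8.91 against 89.3). None of the 7 measured members of the list was higher in all 6 dogs and 4 were lower.

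Genes shared with basophils and mast cells were found in part of the progenitors. ENPP3, a surface pyrophosphatase of basophils, was found in 55 barcodes at 336 CPM against 3.60, and was higher in all 17 dogs. LMO4, a LIM domain cofactor, stood at 490 against 146 CPM, FCER1A, the IgE receptor alpha chain, at 133 against 12.1, and MS4A2, its beta chain, at 64.8 against 23.2, each higher in all 6 dogs. The granule genes CPA3 and HDC, a carboxypeptidase and the histamine-forming enzyme, were found in 6 and 8 barcodes. Of the 64 CPA3 UMIs, 58 came from 1 barcode of OS dog 5, whose list summed to 15186 CPM. In all, 4 of the 7 measured members were higher in all 6 dogs and none was lower.

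Erythroid and megakaryocyte genes were found in varying numbers of barcodes. GATA1, their defining transcription factor, had a UMI in 20 of the 78 progenitors (32.7 against 1.71 CPM). EPOR, the erythropoietin receptor, had one in 8 and KLF1, an erythroid factor, in 6. TESPA1 was the list member that was higher in all 6 dogs (93.3 against 36.8 CPM), but it was lower in the barcodes with GATA1 than in those without (43.6 against 115 CPM). Of the 16 list members, 6 were lower in all 6 dogs, PLEK and PPBP of platelets among them (47.5 against 203 and 7.72 against 72.3 CPM).

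CD34 is also found on endothelial cells, so genes of that lineage and of all leukocytes were read together. PTPRC, the common leukocyte antigen CD45, was found in all 78 barcodes (830 against 2417 CPM), as was LCP1, an actin-bundling protein of leukocytes (524 against 973 CPM). All 9 measured leukocyte genes had UMIs in the progenitors, as had 12822 of the 18202 genes with a UMI in any barcode. None of the 9 was higher in all 6 dogs and 4 were lower. Of the defining endothelial genes, CDH5 had 2 UMIs in 1 barcode, PECAM1 was found in 3 barcodes, and ROBO4, CLDN5, CLEC14A, MMRN2, SOX17 and NOS3 were at 0. Other members of the list were present. TEK, the angiopoietin receptor, stood at 180 against 17.2 CPM, FLT1, a receptor of vascular growth factors, at 85.0 against 7.67 and EGFL7, a secreted protein, at 74.3 against 6.87. EGFL7 was also found in plasmacytoid dendritic cells (88.0 CPM). ESAM, an adhesion molecule, was found in 57 progenitors (68.3 against 10.2 CPM, and 108 in barcodes taken as basophils) and PLVAP in 26 (25.6 against 97.6 CPM). Of the 19 measured endothelial genes, 2 were higher and 5 lower in all 6 dogs. Of the mesenchymal and bone genes, the collagens COL1A1, COL3A1 and COL6A1 and the matrix genes DCN and LUM were at 0, while ALPL, an alkaline phosphatase, was found in 32 progenitors (69.5 against 0.118 CPM).

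Markers of mature leukocytes were low for the most part. Of 11 measured T and NK cell genes, 9 were lower in all 6 dogs and none was higher, among barcodes from which CD3E had been kept out by the rule, and of 11 monocyte and neutrophil genes 10 were lower. LYZ, the lysozyme of monocytes, still reached 493 CPM against 7286, with a UMI in 52 barcodes (316 CPM without OS dog 5). TCF4, a transcription factor of plasmacytoid dendritic cells and early progenitors, stood at 891 against 140 CPM and was found in 77 progenitors. Of the 9 measured dendritic cell genes, TCF4 and FLT3 were higher in all 6 dogs and 3 were lower, BATF3 among them (3.57 against 22.9 CPM). Of 7 B cell genes, 1 was higher in all 6 dogs, CD79A, and 5 were lower. Of 5 platelet genes, 3 were lower in all 6 dogs.

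Cell cycle genes ranged from none to high levels. CDK6, which drives progenitors out of quiescence, stood at 2057 against 190 CPM and was found in 75 barcodes. The replication licensing genes MCM6 (73.1 against 32.1 CPM) and MCM3 (48.7 against 23.2) were found in 50 and 30 barcodes. MKI67, a marker of cycling cells, had a UMI in 1 progenitor and TOP2A in 3, and the mitotic genes CCNA2, CCNB2 and UBE2C were at 0. Others were found in more barcodes, TPX2 in 14, RRM2 in 16, TYMS in 21, PCNA in 11 and HMGB2 in 65 (149 against 381 CPM). In all, 2 of the 19 measured cell cycle genes were higher in all 6 dogs and 9 were lower.

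Of 9 homing and niche receptors, 2 were higher and 4 lower in all 6 dogs. The higher ones were CD44, which binds hyaluronan, with 1796 against 423 CPM and ITGA4, a chain of the VLA-4 integrin, with 1364 against 349, while ITGB1, the other chain of VLA-4, was lower (160 against 246 CPM). CXCR4, the receptor that holds progenitors in the marrow, was lower in all 6, at 20.7, 113, 14.9, 7.28, 33.9 and 31.0 CPM against 151 in the other barcodes. The highest dog, healthy dog 4, was also below that level. S1PR1, through which lymphocytes leave tissues, stood at 4.75 against 82.2 CPM. Of 14 genes of KIT and cytokine signalling, KIT, FLT3 and STAT5A (29.1 against 13.8 CPM) were higher in all 6 dogs and 4 were lower, while JAK2 (443 against 380 CPM) was near the level of the others. For CD109, which binds TGF-beta, the 10 genes of that pathway included none higher in all 6 dogs and 2 lower.

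With the 6 genes that chose the barcodes left out, the 20 genes with the largest ratio to other leukocytes were taken among those with at least 50 CPM that were higher in all 6 dogs. PRKG1, a protein kinase activated by cyclic GMP, came first at 1770, 1340, 4223, 2314, 729 and 295 CPM against 6.92, and GUCY1A1, a subunit of the enzyme that makes cyclic GMP, stood at 215 against 4.04 CPM. PRKG1 was lower in OS dogs 4 and 5 than in the 4 healthy dogs, but over all 17 dogs it ran from 1340 to 6609 CPM in healthy dogs and from 0 to 6000 CPM in dogs with OS, with overlap. The pooled level in barcodes taken as basophils was 1956 CPM, although after thinning 9.76% of them had a UMI, against 59.0% of the progenitors. NAV3, a microtubule-binding protein, was the most even, with 752 to 1463 CPM in the 6 dogs against 3.25, and was found in 72 of the 78 progenitors. DSCAML1, an adhesion molecule, stood at 1833 against 6.60 CPM and was found in 75, with a pooled 1060 CPM in basophils.

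The 20 also held FBN2, a fibrillin (186 against 0.187 CPM), PARD3B (803 against 4.79), PCDH17 (122 against 0.310), ITGA8 (327 against 4.26) and CLEC3B (138 against 0.264). The growth factor NRG3 (1644 against 19.9 CPM), the acid-sensing channel ASIC2 (805 against 8.23), CA2, a carbonic anhydrase (263 against 1.64, but 126 without healthy dog 5), ADGRL3 (248 against 1.56, and 197 in basophils), NAALADL2 (287 against 2.61), ANO3 (150 against 0.418), CCDC180 (113 against 0.164, and 74.5 without OS dog 5), RAI14 (109 against 0.392) and ENSCAFG00000011251, which has no symbol in the files (214.5 against 0.663), were also among the 20, as were ENPP3 and DNTT. CLEC3B, GUCY1A1 and HPGD, a prostaglandin-degrading enzyme (175 against 2.13 CPM, but 2291 in basophils), are on the short list that the study chose on these samples. At the low end stood IGKC, the kappa light chain (2.38 against 845 CPM), and ENSCAFG00000031806 and ENSCAFG00000047066, which have no symbol in the files (7.13 against 2967 and 1.19 against 634 CPM).

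**Figure D3:**
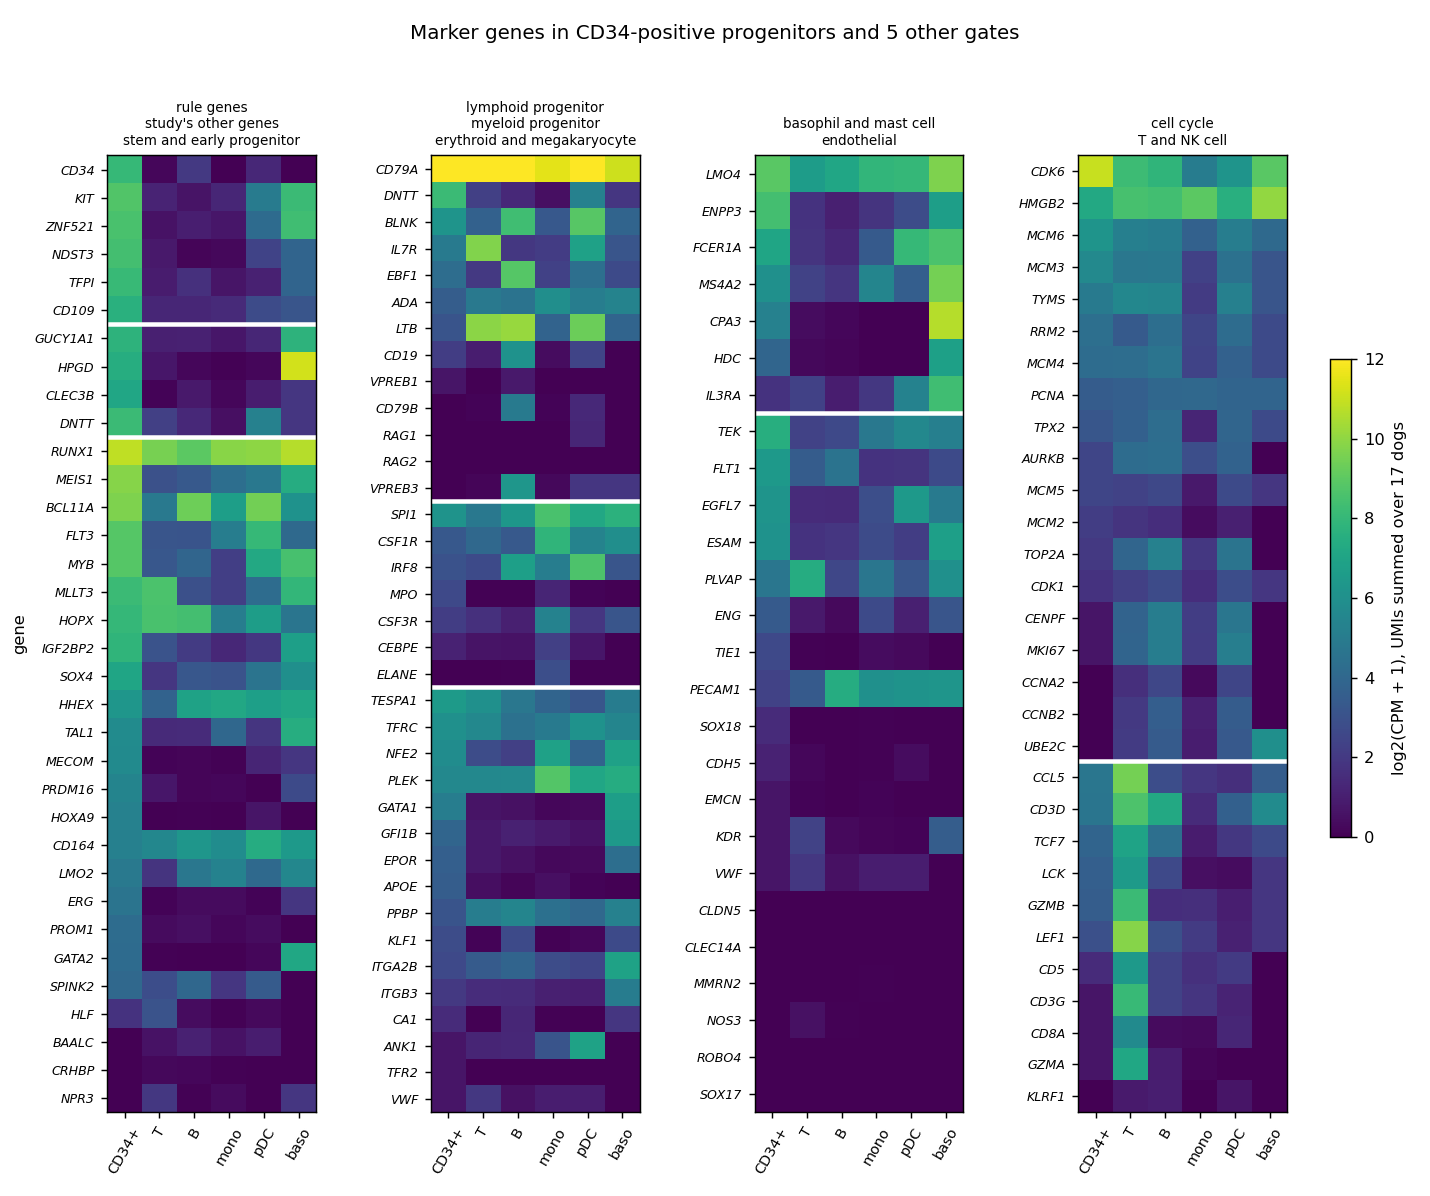
Level of named genes as log2(CPM + 1), summed over the barcodes of 6 sets: CD34+ progenitors, T cells, B cells, monocytes, plasmacytoid dendritic cells (pDC) and basophils or mast cells (baso), on a colour scale from 0 to 12. The progenitor column is high for CD34, MEIS1, FLT3 and DNTT and low for the T cell genes and for MKI67, CD79A is at the top of the scale in most sets, and KIT and ZNF521 are also coloured in the basophil column.

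The progenitors were not uniform. A split of the 78 by a GATA1 UMI was chosen after their values were seen, and so is a description only. The 20 barcodes with GATA1 came from 11 dogs, 10 from healthy dogs and 10 from dogs with OS, with a median of 22979 UMIs, and the 58 without came from 15 dogs with a median of 18427. In the 9 dogs that held both kinds, 44 of the 7037 genes with at least 25 UMIs, 0.625%, were higher with GATA1 in all 9, and 53, 0.753%, were lower in all 9.

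By pooled level, 40.5% of the 7037 genes were higher with GATA1 and 59.5% were lower. Of the 5 basophil and mast cell genes with at least 25 UMIs, all 5 had a higher pooled level with GATA1, and 1 of them was higher in 9 of 9 dogs. Of 5 such erythroid and megakaryocyte genes, GATA1 itself included, 4 were higher in the pool and 1, TESPA1, was lower. PRKG1 stood at 6226 against 803 CPM, FCER1A at 361 against 35.6, ADGRL3 at 636 against 82.3, and TIMP2, an inhibitor of matrix proteases, at 305 against 65.4, all higher in 9 of 9 dogs. CA2, a carbonic anhydrase of red cells, stood at 771 against 45.0 CPM and was higher in 8 of 9, with 367 CPM in the barcodes with GATA1 once healthy dog 5 was left out. EPOR (35.7 against 0.849 CPM), GATA2 (51.5 against 2.55), KLF1 (19.8 against 0) and NOSTRIN (301 against 0, or 143 with GATA1 without healthy dog 5) had most or all of their UMIs in barcodes with GATA1.

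Of 5 lymphoid progenitor genes with at least 25 UMIs, 4 had a higher pooled level without GATA1. CD74, the invariant chain, stood at 532 against 41.6 CPM, the class II gene DLA-DRA at 657 against 73.3, DNTT at 378 against 91.2, MEF2C at 874 against 210, SATB1 at 527 against 123 and HOPX at 328 against 69.4, all in 9 of 9 dogs. FLT3 (581 against 182 CPM), TCF4 (1137 against 315), ASIC2 (1143 against 15.9) and VIM, the intermediate filament vimentin (2520 against 147), were higher in 8 of 9 dogs. Without 1 dog the lower values moved, MEF2C with GATA1 to 127 CPM without healthy dog 5 and VIM with GATA1 to 57.0 CPM without OS dog 9. The separation was not complete, since 17 of the 20 barcodes with GATA1 also had a DNTT UMI and 13 had an FLT3 UMI. MEIS1 (807 with against 953 without), RUNX1 (1924 against 1774), ITGA4 (1365 against 1364) and CD44 (1724 against 1826) were at like levels in both kinds. CD74, DLA-DRA, MEF2C, SATB1, VIM, TIMP2 and NOSTRIN are in no list and were chosen after their values were seen.

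**Figure D4:**
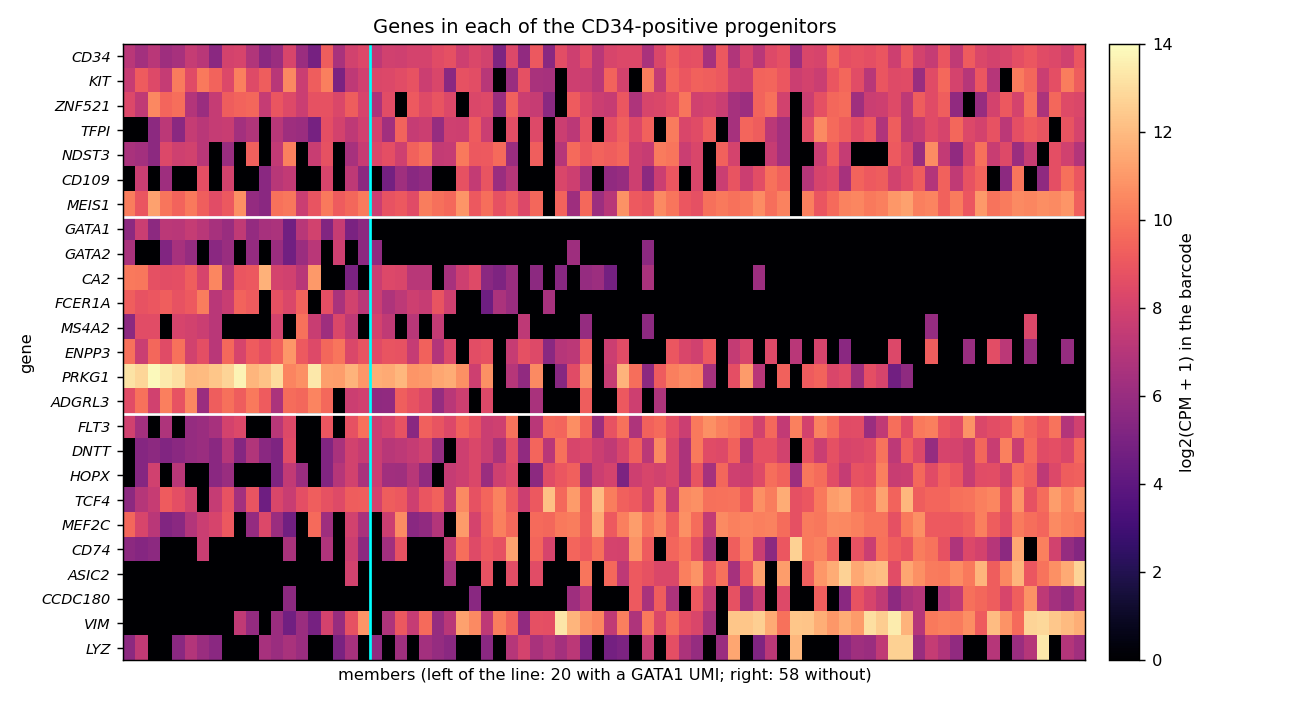
Level of named genes (rows) as log2(CPM + 1), black at 0, in each of the 78 CD34+ progenitor barcodes, the 20 with a GATA1 UMI left of the cyan line and the 58 without right of it, ordered within each set by the levels of PRKG1, CA2 and FCER1A minus those of VIM and ASIC2. PRKG1, CA2 and FCER1A are bright on the left and fade out on the right, DNTT, FLT3 and VIM are brighter on the right, and MEIS1 is bright on both sides.

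A smaller set stood apart by LYZ. In 5 barcodes LYZ had 53 UMIs (OS dog 3), 93 and 261 (OS dog 5), 126 (healthy dog 3) and 207 (OS dog 6), against 0 to 5 in the other 73, and this limit of 50 was also chosen after the values were seen. Without LYZ, the other monocyte list genes summed to 1147 to 5002 CPM in the 5, against 83.5 to 3420 CPM in the rest, with medians of 2157 and 643 CPM. Of the 5, 4 lay within the range of the rest and all 5 lay above its median. The 5 had no GATA1 and no MPO UMI, but all 5 had FLT3, with 7 to 35 UMIs. All 5 also had KIT, but KIT is a gene of the rule, and the barcode of OS dog 3 was chosen through it alone. That barcode held 1 CD34 UMI and, unlike the others of the 5, none of MEIS1 or DNTT. VIM stood at 7265 CPM in the 5 against 1362 in the other 73. Scrublet marked 1 of the 5, that of OS dog 6, as a likely doublet.

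Gene expression in the progenitors was then compared between both groups, with the UMIs of each dog's progenitors summed. With at least 5 barcodes per dog, the comparison rested on 2 dogs with OS and 4 healthy dogs. Both of these dogs with OS were older than every healthy dog, so that here age and disease cannot be told apart. A single gene of 7927 passed (0.0126%) in edgeR's quasi-likelihood test, at an adjusted p below 0.01 and a log2 fold change beyond 0.58, while 423 had an unadjusted p below 0.05, 232 of them higher and 191 lower in dogs with OS. With at least 3 barcodes per dog (6 dogs with OS and 7 healthy dogs) none of 8761 genes passed (0.0%) in edgeR, where 375 had an unadjusted p below 0.05, and none passed in DESeq2.

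The gene that passed was DLA88, a classical class I gene of the dog major histocompatibility complex, which presents peptides to cytotoxic T cells. Normalized levels were 332, 350, 245 and 279 CPM in healthy dogs 3 to 6 and 1258 and 1180 CPM in OS dogs 4 and 5, which do not overlap. The log2 fold change was 2.02 ± 0.237 (SE, edgeR adjusted p = 0.00555). Leaving out any 1 of the 6 dogs ended the call, with adjusted p from 0.0130 to 0.153. In the progenitors of all 17 dogs the groups did overlap, with 243 to 738 CPM in healthy dogs and 153 to 1512 CPM in dogs with OS, and OS dogs 8, 9 and 10 lay below every healthy dog at 153, 226 and 207 CPM. With at least 3 barcodes per dog the log2 fold change was 1.03 ± 0.364 (SE, edgeR adjusted p = 0.845).

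In the other barcodes the same 6 dogs differed in the same direction. There DLA88 stood at 403, 829, 556 and 490 CPM in healthy dogs 3 to 6 and at 4111 and 2453 CPM in OS dogs 4 and 5. Over all dogs it varied widely in these barcodes, with 403 to 2465 CPM in healthy dogs and 145, 616 and 514 CPM in OS dogs 8, 9 and 10. Whether the difference is particular to the progenitors was not tested. DLA88 is 1 of several near-identical and highly variable class I genes, so its counts may be split among copies and are uncertain. A relative, DLA-64, moved the other way without passing in edgeR, at 1538 CPM on average in healthy dogs and 505 CPM in dogs with OS (log2 fold change -1.60, edgeR adjusted p = 0.306), but passed in DESeq2 (adjusted p = 0.00128). In the other barcodes DLA-64 stood at 5262, 3948, 3675 and 3578 CPM in healthy dogs 3 to 6 and at 1532 and 1551 CPM in OS dogs 4 and 5. Over all dogs these barcodes overlapped, with 1394 to 5262 CPM in healthy dogs and 1532 to 6192 CPM in dogs with OS.

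Genes that did not pass were named by the smallest p among those with a mean of at least 50 CPM in the progenitors. They were NRG3, WEE1 and DLA-64 on the lower side and ARHGAP45, CPA3 and GAS7 on the higher side. NRG3 stood at 1534, 778, 1593 and 1734 CPM in the 4 healthy dogs and at 283 and 277 CPM in OS dogs 4 and 5, with no overlap (log2 fold change -2.33 ± 0.329, SE, edgeR adjusted p = 0.0218). It passed in DESeq2 (adjusted p = 4.2e-09). Without healthy dog 4 it passed in edgeR, with an adjusted p of 0.00237, and without each of the other 5 dogs in turn the adjusted p was 0.0690 to 0.376. In dogs with fewer progenitors it ranged widely, reaching 4898 CPM in OS dog 1 and 2263 CPM in OS dog 9, and with at least 3 barcodes per dog the log2 fold change was -0.46 (edgeR adjusted p = 0.999). WEE1, a mitotic inhibitor kinase, had a log2 fold change of -1.91 (edgeR adjusted p = 0.306).

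ARHGAP45, a GTPase-activating protein of leukocytes, averaged 57.6 CPM in the healthy dogs, but stood at 60.2 CPM in OS dog 4 and 1008 CPM in OS dog 5 (log2 fold change 3.19 ± 0.687, SE, edgeR adjusted p = 0.343). The barcodes rich in LYZ held 5 to 108 ARHGAP45 UMIs each, against 0 to 23 in the other progenitors, and without them the log2 fold change was 0.33 (edgeR adjusted p = 0.956). Without OS dog 4 it was 4.05 (adjusted p = 0.00119), and without OS dog 5 it was 0.01. CPA3 (log2 fold change 5.37 ± 1.21, SE, edgeR adjusted p = 0.423) rested on the single barcode of OS dog 5 named above. GAS7 had a log2 fold change of 1.42 (edgeR adjusted p = 0.468).

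**Figure D5:**
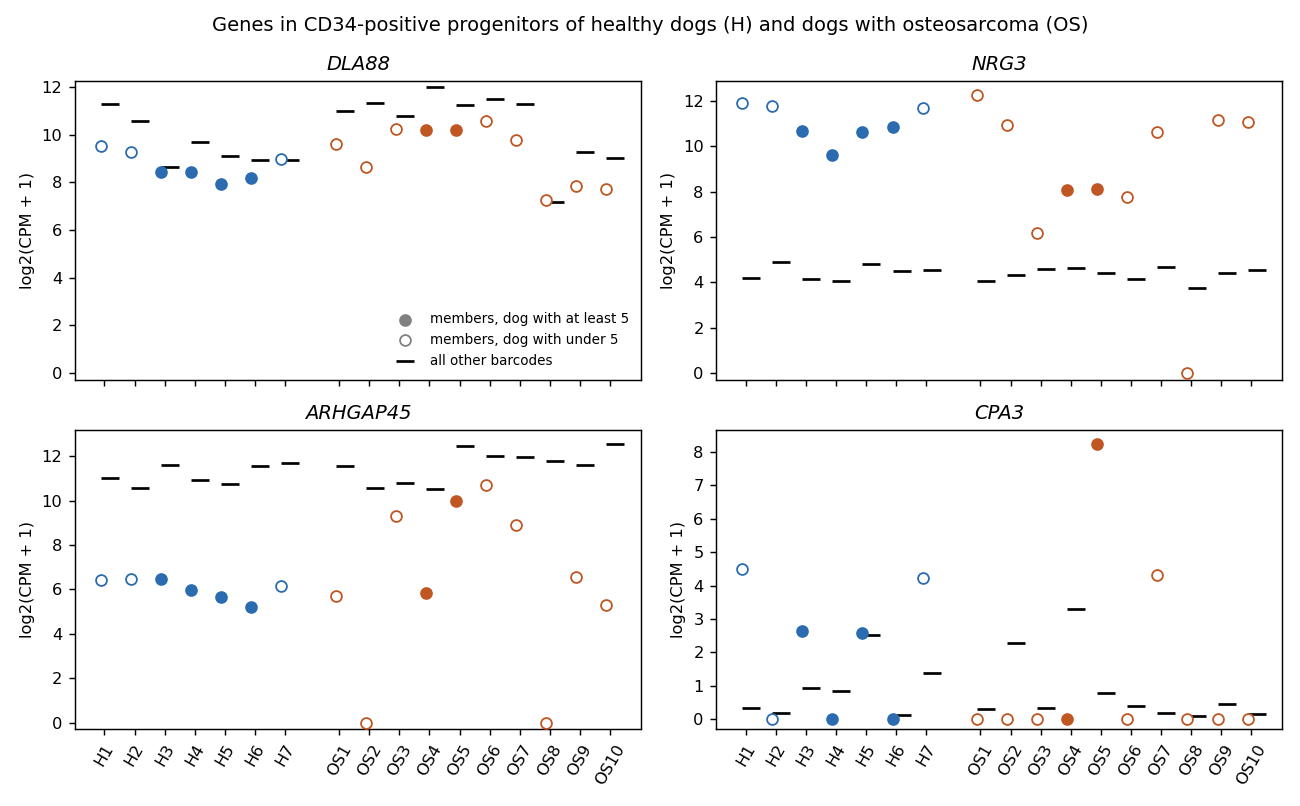
Level, as log2(CPM + 1), of DLA88, NRG3, ARHGAP45 and CPA3 in the progenitors of each dog, filled where the dog had at least 5 progenitor barcodes and open where it had fewer, with a dash for all other barcodes of the dog. DLA88 is higher in OS dogs 4 and 5 than in the filled healthy dogs and low in OS dogs 8, 9 and 10, and CPA3 stands high in OS dog 5.

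The genes that chose the progenitors are given between the groups as a description, since each barcode was selected on them. With at least 5 barcodes per dog the log2 fold changes were -0.18 for CD34, -0.29 for KIT, 0.19 for ZNF521, 0.56 for NDST3, -0.06 for TFPI and -0.53 for CD109. No member of any list passed in edgeR, and the median log2 fold change was 0.04 over the stem cell genes, 0.10 over the basophil and mast cell genes and -0.52 over the erythroid and megakaryocyte genes, against 0.03 over all genes tested. Medians were higher for a few lists with few genes tested, 0.56 over 5 lymphoid progenitor genes, 1.06 over 2 B cell genes, 1.56 over 5 T and NK cell genes, 1.65 over 2 myeloid progenitor genes and 1.77 over 6 monocyte genes. With at least 3 barcodes per dog the medians were -0.07 for stem cell, 0.24 for basophil and mast cell and -0.11 for erythroid and megakaryocyte genes. They were -0.00486 for lymphoid progenitor, 0.246 for B cell, 0.909 for T and NK cell, 0.842 for myeloid progenitor and 1.90 for monocyte genes. Over all genes tested the median was then 0.00270. The monocyte list's summed level in the progenitors of dogs with at least 3 barcodes ran from 535 to 1485 CPM in healthy dogs and from 241 to 5538 CPM in dogs with OS, where the highest were OS dog 5 at 3367 and OS dog 6 at 5538 CPM, both with barcodes rich in LYZ. The T and NK list ran from 21.4 to 106 CPM in healthy dogs and from 13.3 to 336 CPM in dogs with OS, where OS dog 5 was highest, with 40 of the 43 UMIs of CCL5, a chemokine of T cells. The part of monocyte and T cell RNA in the other differences between groups was not tested.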

How the data were processed

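The deposited files are matrices of raw UMI counts per gene and barcode, 1 per dog, which the authors made from 3-prime libraries with Cell Ranger 7.0.0 on CanFam3.1 with an Ensembl annotation of 20257 features. The study ran the alignment both ways, counting introns or leaving them out, and the source of the deposited matrices is not stated, which bears on the levels of long genes. The rule and limits were applied to these counts with Python 3.11.15 and Scrublet in scanpy 1.11.5. The chosen barcodes and gene lists were set with earlier results of these data known.

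Shares were compared by an exact two-sided Wilcoxon test over dogs. Counts summed per dog over genes with at least 10 counts were tested in edgeR 4.0.16 (quasi-likelihood, TMM, Benjamini-Hochberg adjustment), with DESeq2 1.42.0 as an alternative, in R 4.3.3, after a check on simulated data. Ratios of CPM had 1 CPM added. The narrower barcode limits of the study were an alternative because they would have removed 40 of the 78 barcodes.

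Genes were named if they belonged to the rule, the short list of the study or the lists, or were called between groups. The 20 highest ratios (at least 50 CPM, higher in every dog with at least 5 barcodes) and the 5 lowest (at least 200 CPM in other barcodes) were also taken. With few genes called, the 3 smallest p in each direction were added, among genes with a mean of at least 50 CPM in the progenitors. Of 211 list symbols 190 were in the files, and the others were not analysed here. Some genes that the rule names are not reported here. Doublets were scored and kept. Free RNA was not removed. Alternatives left out each dog and changed the limits, rule, filter, depth, tool and denominator.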

Additional observations from a re-analysis of the deposited data

Results flagged for a closer look

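OS dog 3 stood apart from the other dogs with OS by its number of kept barcodes, 1253, and gave 1 barcode that met the rule. For a single measure, about 1 group in 20 holds such a sample by chance. Several measures were screened in both groups, so a flag somewhere among them is more frequent than that. Without OS dog 3 the comparison of shares did not pass either.

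Outside the chosen set, 23 barcodes had CD34 and at least 2 of the 5 second genes but also a UMI of CD3E, MS4A1 or PAX5. They came from 12 dogs, 5 of them from healthy dog 3 and 4 from OS dog 4, with a median of 20250 UMIs and 4660 genes. CD34 stood at 310 CPM and KIT at 438 CPM in them, near the 265 and 431 CPM of the chosen barcodes. CD3E was found in 11 of the 23 with up to 12 UMIs, MS4A1 in 8 with up to 5, and PAX5 in 6 with up to 6.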

How the results depend on the processing

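No result reversed under any alternative run. The difference in share was -0.0189 to -0.0623 percentage points over 29 alternatives, of which 24 kept it on the same side of 0.05. It passed with at least 2 CD34 UMIs (-0.0520, p = 0.0330), with CD34 not required but at least 3 of the 5 genes (93 barcodes, -0.0623, p = 0.0250), without the barcodes rich in LYZ (-0.0503, p = 0.0431) and without OS dogs 4 or 5 (exact Wilcoxon tests; leaving out each dog, -0.0494 to -0.0228). An exact permutation test of the means gave p = 0.146. With the replicate number as a block it was -0.0348 (exact p = 0.234), but the numbers do not pair the dogs, as same-numbered dogs deviated with correlations of -0.344 to 0.309. Of the 8 gates, 7 passed with at least 2 CD34 UMIs, 4 without likely doublets and 0 to 5 when each dog was left out. The correlation with depth kept its side in 6 of 6 alternatives.

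The count of genes was 3 with DESeq2 (DLA88, NRG3 and DLA-64), 37 with no filter beyond 1 count, 2 at an adjusted p below 0.05 with no fold limit, 18 within the limits of the study (2 healthy dogs and 1 dog with OS), and 0 with the replicate block, or with CD3E, MS4A1 and PAX5 not required at 0 together with at least 2 of the 5 genes (5 healthy dogs and 3 dogs with OS). Leaving out each dog gave 0 to 3. Without an OS dog the other is assumed to vary like the healthy dogs. With at least 3 barcodes per dog it was 0, also at an adjusted p below 0.05 and with DESeq2, and 12 with the block. For DLA88 the edgeR adjusted p was 0.0130 to 0.153 when each dog was left out, which ended the call each time, and 0.463 with the block. It passed in DESeq2 (adjusted p = 2.8e-08), without the barcodes rich in LYZ (0.00194) and with at least 3 barcodes per dog and the block (log2 fold change 1.59, 0.00191). With that minimum and the block NRG3 (log2 fold change -1.68, edgeR adjusted p = 0.000946) and ARHGAP45 (2.82, edgeR adjusted p = 0.000379) passed as well. The causes were not tested. The alternatives of the LYZ set, the relaxed rules, CD79A and those with 3 barcodes beyond the main test were chosen after seeing the data. Asking also for no CD79A left no barcode, without CD79A 51 remained, and minimums of 10 or 25 barcodes per dog could not be run.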
